A study of Mus musculus with 12 samples.

Results

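The 6 liver RNA libraries described here come from a diet and genotype experiment and belong to the pair of groups that differ in both factors. They are 3 libraries of hepatocyte-specific Pld1 knockout mice on a high-fat diet (HFD), labelled Pld1(H)-KO and called KO here, and 3 of Pld1-Flox control mice on normal chow. They were taken by their labels from a mouse series of 12 libraries, whose other 6 are KO livers on chow and control livers on HFD. The diet lasted 20 weeks according to the series description. The genotype label of the control samples reads WT and that of the KO samples reads knockdown, while their descriptions read Pld1-Flox and Pld1(H)-KO. No source used here states the Cre line, the deleted exons, or the age, strain, sex and hour of killing of the mice. Since genotype and diet change together, their parts in a difference between these groups cannot be told apart from these 6 libraries.

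Phospholipase D1 cuts phosphatidylcholine into choline and phosphatidic acid, a lipid that is both a signal and a precursor of triglyceride and phospholipid. In hepatocytes, dietary fat is known to activate PPARa, the nuclear receptor of fatty acid oxidation, and to raise PPARg, which drives lipid storage genes such as the fatty acid transporter Cd36. Steatosis is also known to come with changes in the secreted proteins, cytochrome P450 enzymes and sex-biased genes of liver. The comparison asks which of these were still away from the lean control state in fat-fed KO livers and which stood at the chow level.

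Libraries held 19116202 to 20572424 counts over genes in the KO group on HFD and 18215008 to 20559861 in the control group on chow. Levels are in CPM, which are counts scaled to a common library size with TMM factors, and errors of levels are SD with n = 3. Liver genes were abundant in all 6 libraries, with the albumin gene Alb at 67497 to 71623 CPM in KO livers on HFD and 64428 to 65063 CPM in control livers on chow. Of 17 markers of pancreas, adipose tissue, muscle and kidney, 12 had no count in any of the 6 libraries, among them Prss1, Lep, Ckm and Umod. A lack of counts does not by itself show that a tissue was absent. Mt2, Hsd3b7 and Slc51a, from the liver gene lists used below, had no count in these libraries either. The count filter left 2 of the 17, and 1 of these was higher past the threshold. Cela1, listed for pancreas, was at 30.1, 30.5 and 29.3 CPM in KO livers on HFD, against 25.5, 23.6 and 23.1 CPM in control livers on chow. The Y-linked Ddx3y had 1319 to 1419 counts in the KO libraries on HFD and 1514 to 1732 in the control libraries on chow. Xist had 2 to 7 counts in the KO libraries and 3 to 6 in the control libraries. The libraries of a group differed by little: over 2762 genes with at least 50 CPM the median coefficient of variation was 2.80% in KO livers on HFD and 2.34% in control livers on chow. Nothing in the labels says that the 3 libraries of a group are separate animals, so every p-value refers to the spread among these particular libraries, and that spread may be technical.

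The level of the deleted gene checks the labels. Pld1 (ENSMUSG00000027695) was at 2.91, 1.93 and 2.94 CPM in KO livers on HFD, against 11.3, 11.3 and 9.07 CPM in control livers on chow. The KO livers on HFD held 24.8% of the level in control livers on chow (log2 fold change -2.01 with SE 0.16, adjusted p = 1.11e-12), and the groups did not overlap. Pld1 averaged 4.03 CPM in KO livers on chow, 7.13 CPM in control livers on HFD and 10.6 CPM in control livers on chow. The 24.8% thus compares groups that differ in diet as well as genotype. An exact two-sided permutation test over the 6 libraries gave p = 0.1 for Pld1, the smallest that 3 against 3 libraries allow. Because the counts are summed over a gene with all its exons, and liver also holds cells other than hepatocytes, what remains does not measure the deletion. Fewer cells of a type and less RNA per cell cannot be told apart in such bulk samples, here or below. Pld2, the other classical phospholipase D, was at 10.1, 8.91 and 7.92 CPM in KO livers on HFD, against 7.87, 9.63 and 8.43 CPM in control livers on chow, and its log2 fold change of 0.05 lay within the bounds used here for the chow level.

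Many genes differed between the groups, most of them by small amounts. At an adjusted p under 0.05 in edgeR's quasi-likelihood test, 4761 of 14778 genes differed (32.2%), 2385 higher (16.1%) and 2376 lower (16.1%) in KO livers on HFD. A difference of at least 1.5-fold as well, called separate below, was found for 1480 genes (10%), 665 higher (4.50%) and 815 lower (5.51%), and 717 genes (4.85%) differed at least 2-fold. The 3 libraries of one group lay wholly above or below those of the other for 6188 genes (41.9%), so a lack of overlap in a single gene is common here. The median size of the log2 fold change over all tested genes was 0.18, and 1 gene in 10 exceeded 0.75. A gene was placed at the chow level where the 95% interval of its log2 fold change lay wholly between -0.32 and 0.32, which held for 5546 genes (37.5%). Of these, 1239 (8.38%) also passed the threshold with a small difference. Of the rest, 2042 genes (13.8%) passed the threshold by under 1.5-fold and outside those bounds, and 5710 (38.6%) met neither rule. With only genes of at least 5 CPM in a group mean tested, 790 were separate. When a coefficient of variation of 20% was imposed on all genes, which was decided with the results in hand, 923 genes passed the threshold and 0 could be placed at the chow level, so placing genes at the chow level rests on the small spread between these libraries.

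**Figure D1:**
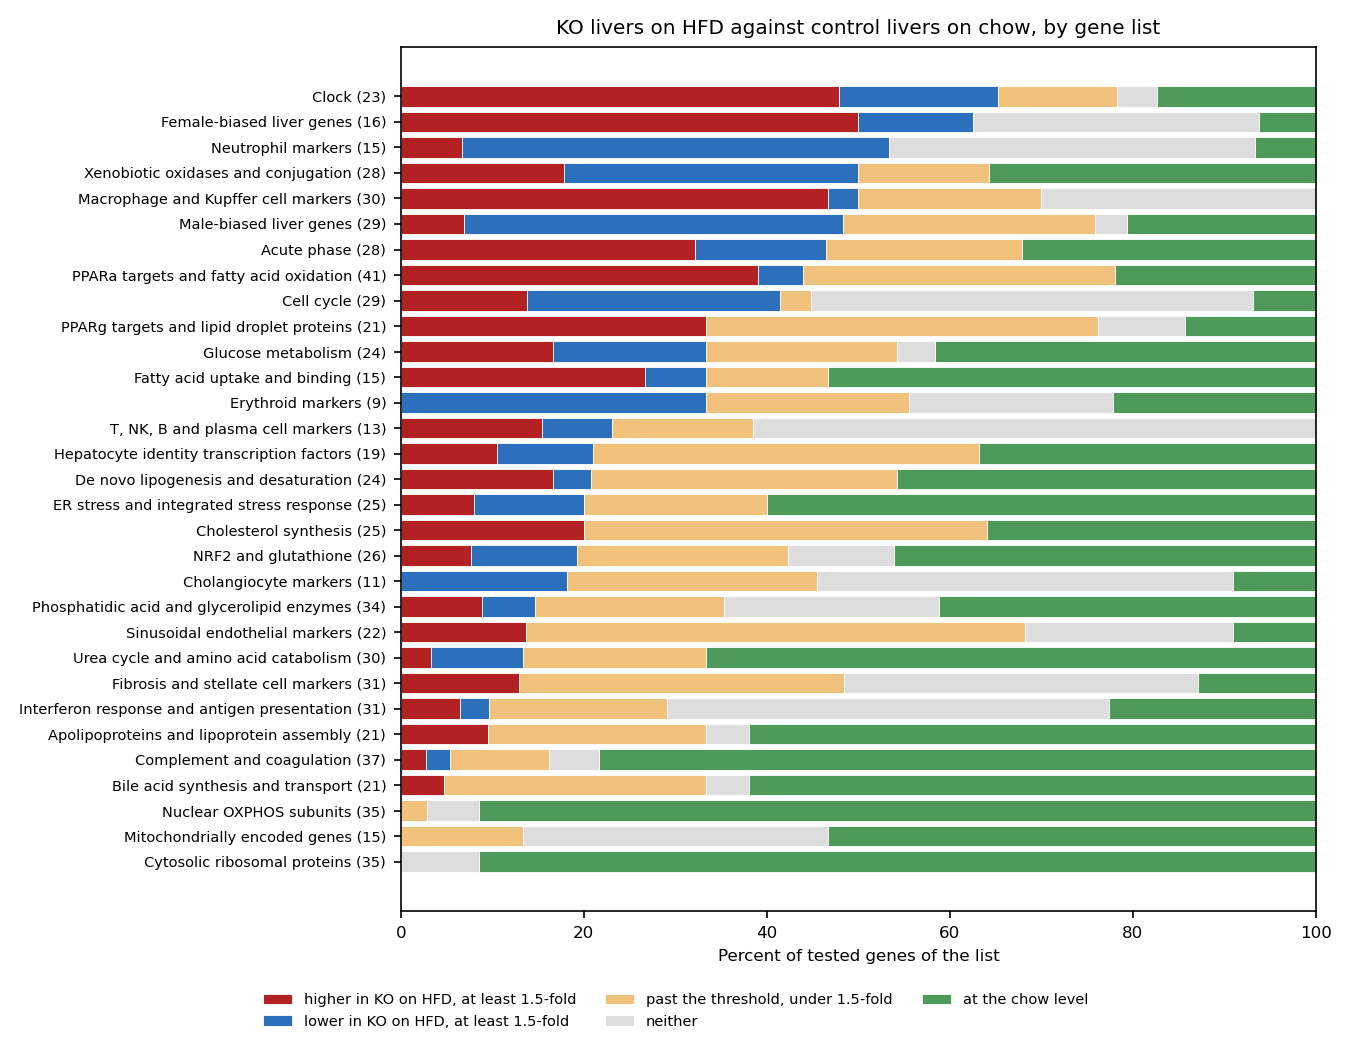
Share of each gene list's tested members (number in brackets) that were at least 1.5-fold higher or lower in KO livers on HFD than in control livers on chow, past the threshold by less, at the chow level, or neither. Clock genes had the highest separate share, 15 of 23, and ribosomal protein genes had none of 35 separate and 32 at the chow level.

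Cd36 and some of the genes that bind fatty acids stood above the lean level, with Pparg slightly below it. Cd36 (ENSMUSG00000002944), the transporter named in the series title, was at 108, 98.4 and 100 CPM in KO livers on HFD, against 53.9, 54.9 and 53.7 CPM in control livers on chow. That is 1.88-fold higher with no overlap (log2 fold change 0.91 with SE 0.042, adjusted p = 1.89e-18). Fabp4 and Fabp2, which bind fatty acids in the cytosol, differed by 0.98 and 1.16 on the log2 scale and the liver form Fabp1 by 0.68, while the keratinocyte form Fabp5 fell by 1.39 (6.26 CPM in KO livers on HFD against 16.4 CPM in control livers on chow). In this list of 15 uptake genes 4 were separate and higher and 1 separate and lower, together 33.3% against 10% of all genes. At the chow level were 8 (53.3% against 37.5%), among them Slc27a5 and Acsl1, which activate fatty acids with coenzyme A. Pparg was at 13.8, 11.9 and 13.5 CPM in KO livers on HFD, against 15.8, 14.9 and 16.3 CPM in control livers on chow, lower by a small amount (log2 fold change -0.26 with SE 0.087, adjusted p = 0.02). That call was lost without replicate 2 of the KO livers on HFD (adjusted p = 0.117) and without replicate 3 of the control livers on chow (0.0832).

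Several lipid droplet proteins stood well above the chow level. Of 23 listed PPARg targets and droplet proteins 21 were tested, Plin1 having no count and Adipoq being below the count filter. Past the threshold, 15 were higher and 2 lower, of which 7 higher genes were separate (33.3% against 10% of all genes). The median log2 fold change was 0.33 against -0.00311 over all tested genes. Cidec, which fuses droplets, was at 18.9, 19.5 and 20.2 CPM in KO livers on HFD, against 5.47, 6.09 and 6.64 CPM in control livers on chow (log2 fold change 1.68 with SE 0.095, adjusted p = 1.14e-16). Plin4, a droplet coat protein, was at 58.0, 60.2 and 68.3 CPM in KO livers on HFD, against 22.8, 20.1 and 21.9 CPM in control livers on chow (log2 fold change 1.53 with SE 0.059, adjusted p = 6.56e-21). In both genes the lowest KO library was above the highest control library by more than 2-fold. Plin5 and G0s2, which hold back lipolysis, were higher by 1.05 and 1.20, and Cidea by 1.01 at 3.70 CPM in KO livers on HFD against 1.84 CPM in control livers on chow. Mogat1, a monoacylglycerol acyltransferase, was higher at 2.94 CPM in KO livers on HFD against 1.22 CPM in control livers on chow. Plin2, the main coat protein of liver droplets, was 1.34-fold higher (log2 fold change 0.42 with SE 0.023, adjusted p = 1.3e-16), which is past the threshold but not separate. Abhd5, Cideb and Plin3 were at the chow level.

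Fatty acid oxidation genes lay almost all above chow. Of 41 tested genes 37 were higher and 2 lower past the threshold, and the median log2 fold change was 0.48. Separate were 16 and 2 of them, together 43.9% against 10% of all genes. Cyp4a14, a microsomal fatty acid hydroxylase, was at 1258, 1245 and 1226 CPM in KO livers on HFD, against 100.1, 98.4 and 100.2 CPM in control livers on chow, a 12.5-fold difference (log2 fold change 3.64 with SE 0.024, adjusted p = 2.03e-41). Vnn1, a pantetheinase induced by PPARa, was at 108, 107 and 104 CPM in KO livers on HFD, against 32.7, 33.4 and 34.5 CPM in control livers on chow (log2 fold change 1.67 with SE 0.046, adjusted p = 6.82e-25). Fgf21, a hepatic hormone, was at 10.7, 12 and 12.9 CPM in KO livers on HFD, against 1.95, 1.52 and 2.13 CPM in control livers on chow (log2 fold change 2.67 with SE 0.16, adjusted p = 4.5e-17). No library of one group came near the other in these genes. The carnitine transferase Cpt1a, which admits fatty acids to mitochondria, was higher by 0.79, Ppara itself by 0.85, the fatty aldehyde dehydrogenase Aldh3a2 by 0.96 and Pex11a, a peroxisome division protein, by 0.98. The exceptions were Pdk4, a kinase that turns off pyruvate dehydrogenase, at 14.6, 13.5 and 13.4 CPM in KO livers on HFD, against 33.1, 35.2 and 33.4 CPM in control livers on chow (log2 fold change -1.29 with SE 0.07, adjusted p = 8.36e-17), and the male-biased hydroxylase Cyp4a12a at -1.31. Ehhadh, an enzyme of peroxisomal oxidation, was at the chow level with a log2 fold change of 0.03.

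Many fat synthesis genes were at the chow level, while desaturases lay on both sides of it. In the list of 24 tested lipogenic genes 11 were at the chow level, 45.8% against 37.5% of all genes. The regulator Srebf1 was at 357, 362 and 369 CPM in KO livers on HFD, against 394, 377 and 382 CPM in control livers on chow (95% interval -0.14 to -0.03 on the log2 scale). Acaca, which makes malonyl-CoA, was at 102, 100.2 and 95.1 CPM in KO livers on HFD, against 98.9, 94.8 and 97.6 CPM in control livers on chow, and Elovl5, an elongase, at 1141, 1111 and 1085 CPM in KO livers on HFD, against 1096, 1106 and 1093 CPM in control livers on chow. The groups overlapped for Acaca and Elovl5, and for Srebf1 every KO library was slightly below every control library. Scd1, which desaturates palmitate and stearate, was the 1 gene of the list that was separate and lower, at 5067, 5007 and 4932 CPM in KO livers on HFD, against 10399, 10491 and 10312 CPM in control livers on chow (log2 fold change -1.06 with SE 0.012, adjusted p = 2.08e-35). Fads2 and Fads1, the desaturases of polyunsaturated fats, were both separate and higher, Fads2 at 631 CPM in KO livers on HFD against 266 CPM in control livers on chow and Fads1 at 718 CPM in KO livers on HFD against 469 CPM in control livers on chow. The elongase Elovl2 was higher by 0.87 and Thrsp, a regulator of lipogenesis, by 0.65. Fasn, the fatty acid synthase, differed by 0.26 and left the bounds of the chow level in 4 of 15 alternative fits.

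Enzymes around phosphatidic acid were divided as well. In 34 genes of phosphatidic acid, glycerolipid and phosphatidylcholine metabolism 5 were separate (14.7% against 10% of all genes). At the chow level were 14 (41.2%, near the 37.5% of all genes). Lpin1, a phosphatidate phosphatase that feeds triglyceride synthesis and also a coactivator of PPARa, was at 554, 554 and 564 CPM in KO livers on HFD, against 96.0, 95.8 and 96.0 CPM in control livers on chow, a 5.81-fold difference (log2 fold change 2.54 with SE 0.028, adjusted p = 2.08e-35). Its paralog Lpin2 was at 583, 589 and 594 CPM in KO livers on HFD, against 244, 239 and 239 CPM in control livers on chow (log2 fold change 1.29 with SE 0.025, adjusted p = 1.68e-28). Both were far above the highest control library. Chka, which starts phosphatidylcholine synthesis from choline, fell by 0.74 (94.6 CPM in KO livers on HFD against 158 CPM in control livers on chow). Pemt, which makes phosphatidylcholine by methylation, was at 318, 327 and 320.0 CPM in KO livers on HFD, against 335, 330.1 and 323 CPM in control livers on chow, and Dgat1, Dgat2 and Pcyt1a were at the chow level too, with log2 fold changes of -0.07, 0.17 and 0.03.

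Cholesterol synthesis genes were slightly above chow, and most bile acid genes were at the chow level. Of 25 cholesterol genes 19 were higher and 1 lower past the threshold, with a median of 0.31, where 16.1% of all genes were higher. At the chow level were 9 (36%, near the 37.5% of all genes), and 20% were separate against 10%. Of the list, 5 were separate, among them Sqle, Hsd17b7, Idi1 and Fdft1 at 0.90, 0.70, 0.60 and 0.60, the last of these just above 1.5-fold, and 3 were separate without replicate 1 of the KO livers on HFD or with upper quartile scaling. Sqle, the squalene epoxidase, was at 166, 157 and 154 CPM in KO livers on HFD, against 84.2, 86.4 and 85.3 CPM in control livers on chow. The groups were far apart for Sqle. Among 21 tested bile acid genes 13 were at the chow level (61.9% against 37.5%), including Cyp7a1, the rate-limiting hydroxylase, at 162, 161 and 147 CPM in KO livers on HFD, against 154, 154 and 149 CPM in control livers on chow (95% interval -0.04 to 0.13). The canalicular pump Abcc2 was at 689, 678 and 688 CPM in KO livers on HFD, against 689.9, 679 and 688 CPM in control livers on chow and the uptake transporter Slco1b2 differed by 0.10. For Cyp7a1 and Abcc2 the groups overlapped. The 1 separate gene was Nr0b2, which encodes the repressor SHP, at 84.3, 85.8 and 88.7 CPM in KO livers on HFD, against 36.1, 33.6 and 39.9 CPM in control livers on chow (log2 fold change 1.24 with SE 0.051, adjusted p = 4.88e-20). Hsd3b7 and Slc51a are listed at 0 in all 6 libraries. Apolipoprotein and lipoprotein genes were at the chow level for 13 of 21 members (61.9% against 37.5% of all genes), Apob and Apoc3 among them. The 2 separate members, 9.52% and near the 10% of all genes, were Apoa4 and Angptl4, an inhibitor of lipoprotein lipase. Apoa4 was at 1.52 (42.6 CPM in KO livers on HFD against 14.9 CPM in control livers on chow). Angptl4 was at 1.13 (273 CPM in KO livers on HFD against 125 CPM in control livers on chow).

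**Figure D2:**
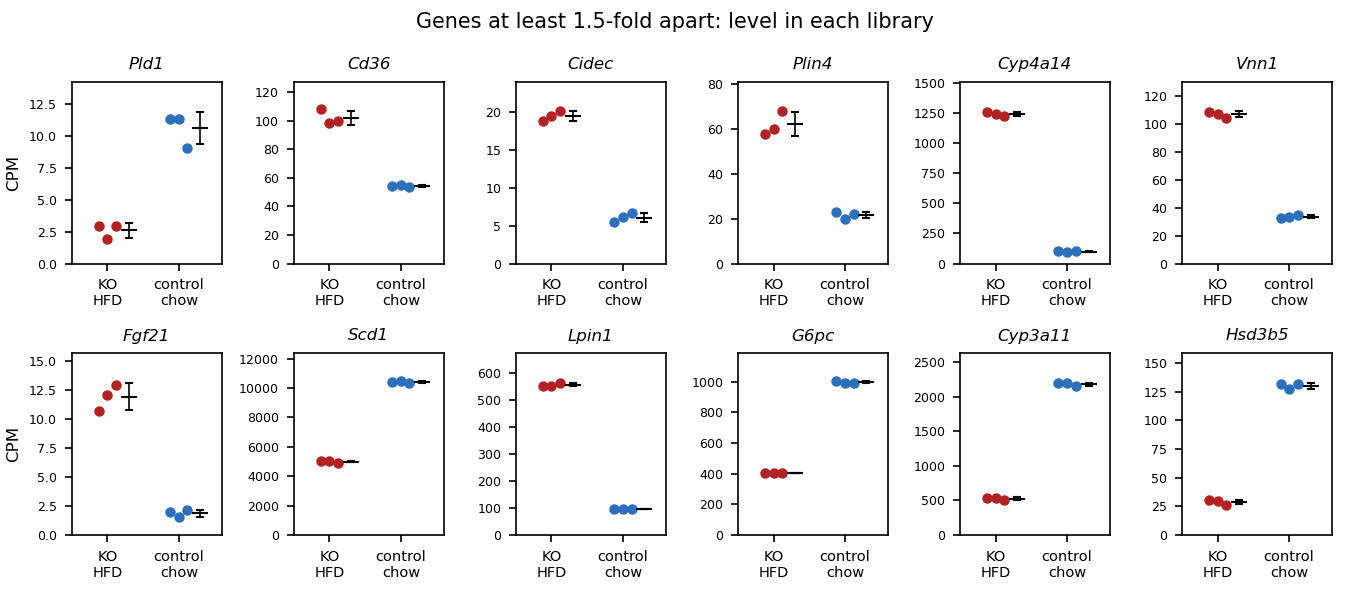
CPM in each library (points), with mean and SD (bars, n = 3), of 12 genes at least 1.5-fold apart, KO livers on HFD on the left and control livers on chow on the right of each panel. Cyp4a14 was 12.5-fold higher in KO livers on HFD, Pld1 was at 24.8% of the control level, and no gene shown had overlapping groups.

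Glucose genes held large changes in both directions. 8 of 24 tested members were separate (33.3% against 10% of all genes), 4 higher and 4 lower. G6pc, the phosphatase that releases glucose from liver, was at 403, 404 and 403 CPM in KO livers on HFD, against 1002, 992 and 993 CPM in control livers on chow (log2 fold change -1.30 with SE 0.022, adjusted p = 1.11e-30). Every KO library was below every control library. Pfkfb3 and Pfkfb1, which set fructose 2,6-bisphosphate, were higher by 2.42 and 1.20. The insulin receptor substrate genes Irs2 and Irs1 fell by 1.46 and 0.81, and Igfbp1, which insulin is known to repress, by 1.24. Pck1, of gluconeogenesis, was 1.41-fold higher, which is past the threshold but not separate, and Fbp1 and Slc2a2 were at the chow level. Of 30 urea cycle and amino acid genes 20 were at the chow level (66.7% against 37.5% of all genes), among them Ass1, Otc and Arg1. The separate members were Hal, Cth and Bhmt, of histidine and sulfur amino acid breakdown, which fell by 0.89, 0.78 and 0.73, and glutamine synthetase Glul at 0.62.

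Sex-biased genes were for the most part still away from the lean level. Of 29 male-biased genes 22 were lower and 4 higher past the threshold, with a median of -0.40. Of these, 12 and 2 were separate, together 48.3% of the list against 10% of all genes. Hsd3b5, a steroid dehydrogenase of male mouse liver, was at 30.3, 29.4 and 26.4 CPM in KO livers on HFD, against 132, 127 and 132 CPM in control livers on chow (log2 fold change -2.18 with SE 0.052, adjusted p = 1.4e-26). Serpina1e, a protease inhibitor, was at 2275, 2219 and 2203 CPM in KO livers on HFD, against 4093, 4029 and 4068 CPM in control livers on chow (log2 fold change -0.86 with SE 0.016, adjusted p = 1.69e-29). Moxd1 had no count in the 3 KO libraries on HFD and 1126 counts in the 3 control libraries on chow, which makes it at least 379-fold lower if the group's total is set to a floor of 3 counts. Major urinary protein genes were divided, Mup20 and Mup3 at the chow level, Mup1, Mup16 and Mup17 lower by 0.69, 0.61 and 0.61, and Mup11 higher by 0.82. Bcl6, a repressor that keeps female genes low in male liver, was higher by 1.07. Of 25 female-biased genes 16 were tested and 8 were separate and higher, among them Cyp17a1, a steroid hydroxylase, at 65.4, 66.7 and 68.1 CPM in KO livers on HFD, against 6.48, 6.14 and 5.35 CPM in control livers on chow (log2 fold change 3.48 with SE 0.081, adjusted p = 1.68e-28), and Cyp2b9 at 97.3, 98.5 and 100.5 CPM in KO livers on HFD, against 25.9, 23.1 and 22.6 CPM in control livers on chow (log2 fold change 2.05 with SE 0.049, adjusted p = 9.27e-27). The 2 that were separate and lower were Cyp2b10 and Atp6v0d2, which brings the separate share to 62.5% against 10% of all genes. The 9 untested members had 0 to 5 counts in each group, Cyp3a41a, Cyp3a41b and Cyp3a16 none at all. Members of the Mup, Serpina1, Cyp2b, Cyp3a and Cyp4a families are near-identical in sequence, and the sources used here do not say where shared reads were assigned, so values of single members are uncertain.

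Xenobiotic enzymes were displaced in both directions. In 28 tested genes 9 were separate and lower and 5 separate and higher, together 50% against 10% of all genes. At the chow level were 10, or 35.7%, which is near the 37.5% of all genes. Cyp3a11, the main drug-oxidising P450 of the PXR pathway, was at 542, 531 and 505 CPM in KO livers on HFD, against 2196, 2191 and 2157 CPM in control livers on chow (log2 fold change -2.05 with SE 0.025, adjusted p = 4.87e-34). Cyp2b10, the classical target of the receptor CAR, was at 1.51, 2.52 and 1.42 CPM in KO livers on HFD, against 15.4, 18.1 and 17.5 CPM in control livers on chow (log2 fold change -3.23 with SE 0.19, adjusted p = 5.83e-17). Cyp2c54, Cyp2c29 and Cyp2c50 fell by 1.27, 1.12 and 0.83, and the carboxylesterase Ces2a by 1.11. Of their receptors, Nr1i3, which encodes CAR, was at the chow level and Nr1i2, which encodes PXR, was higher by 0.59. Por, which passes electrons to every microsomal P450, was higher by 0.99, and the pericentral oxidases Cyp1a2 and Cyp2e1 by 0.41 and 0.48. Genes of the NRF2 and glutathione list were at the chow level for 12 of 26 members (46.2%), including Nfe2l2, Gclm and Txnrd1. The glutathione transferases Gsta2 and Gstm3 fell by 1.78 and 1.70, Gsta2 with 11.5 CPM in KO livers on HFD against 39.6 CPM in control livers on chow and Gstm3 with 30.5 CPM in KO livers on HFD against 99.3 CPM in control livers on chow. Gclc, of glutathione synthesis, fell by 0.36.

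Acute phase proteins went both ways. Of 28 tested genes 9 were separate and higher, 4 separate and lower and 9 at the chow level, with a median of -0.04. Together 46.4% were separate, against 10% of all genes, and 32.1% were at the chow level, against 37.5%. Orm2, an orosomucoid gene, was at 75.0, 77.9 and 77.8 CPM in KO livers on HFD, against 319.7, 334 and 332 CPM in control livers on chow (log2 fold change -2.10 with SE 0.033, adjusted p = 2.8e-31). Hamp, which encodes the iron hormone hepcidin, was at 113, 115 and 110.1 CPM in KO livers on HFD, against 309, 339.9 and 332 CPM in control livers on chow (log2 fold change -1.53 with SE 0.036, adjusted p = 2.47e-26). Saa2, a serum amyloid gene, fell by 1.01 and Saa1 by 0.36. On the higher side, Hp, which encodes haptoglobin, was at 5972, 6071 and 6066 CPM in KO livers on HFD, against 3867, 3794 and 3879 CPM in control livers on chow (log2 fold change 0.65 with SE 0.014, adjusted p = 2.85e-27), and Saa4, Lcn2 and Serpina3n were higher by 1.19, 0.91 and 0.69. C-reactive protein Crp and hemopexin Hpx were at the chow level. Complement C3 was placed there too, with a log2 fold change of -0.27 and no overlap of the groups. It left the bounds of the chow level when length and GC trends were removed. Mt2 is listed at 0 in all 6 libraries. Complement and coagulation genes were at the chow level for 29 of 37 members (78.4%), among them F2, Plg and Serpinc1, and 2 were separate, C8b at -0.79 and Mbl2 at 0.65.

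Of the 32 lists, the circadian clock had the highest share of separate genes. The liver clock is a loop in which ARNTL and its partners drive E-box genes such as Per, Cry, Dbp and Nr1d1. Of these, the product of Nr1d1 in turn holds Arntl, Npas2 and other genes down. Many of these transcripts swing widely over a day, and no source used here gives the hour at which the livers were taken, so its part in these values was not tested. Promoter windows of 5 clock genes are shown, because each holds a known clock element, 3 of them in genes that were higher and 2 in genes that were lower in KO livers on HFD. They run from 250 bases before to 50 after the annotated start in RefSeq, build GRCm38.p6. Capitals mark an E-box (CACGTG) in Ciart, Tef and Cry1, a D-box (TTANGTAA) in Per3 and the core of a ROR element (TAGGTCA) in Arntl, sought on both strands. The E-box reads alike on both strands and none of the marked matches overlap.
Ciart (chr3:95882179-95882478, minus strand): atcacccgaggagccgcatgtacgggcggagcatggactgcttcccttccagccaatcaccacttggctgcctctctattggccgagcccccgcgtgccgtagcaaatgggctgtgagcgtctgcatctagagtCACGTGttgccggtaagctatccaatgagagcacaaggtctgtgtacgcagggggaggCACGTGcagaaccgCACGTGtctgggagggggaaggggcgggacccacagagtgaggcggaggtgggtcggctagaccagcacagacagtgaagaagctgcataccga
Tef (chr15:81802423-81802722, plus strand): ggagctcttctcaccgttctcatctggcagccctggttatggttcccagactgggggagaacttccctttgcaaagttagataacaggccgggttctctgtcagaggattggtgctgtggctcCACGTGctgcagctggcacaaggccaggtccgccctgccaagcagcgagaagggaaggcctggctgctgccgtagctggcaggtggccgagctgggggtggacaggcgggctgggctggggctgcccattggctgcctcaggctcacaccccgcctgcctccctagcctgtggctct
Per3 (chr4:151044616-151044915, minus strand): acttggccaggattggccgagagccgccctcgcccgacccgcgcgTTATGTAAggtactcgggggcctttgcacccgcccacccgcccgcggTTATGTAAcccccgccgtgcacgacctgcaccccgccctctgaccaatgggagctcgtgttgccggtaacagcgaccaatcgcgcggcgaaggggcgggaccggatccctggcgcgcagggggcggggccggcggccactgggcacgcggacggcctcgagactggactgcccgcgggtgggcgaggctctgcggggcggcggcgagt
Arntl (chr7:113207261-113207560, plus strand): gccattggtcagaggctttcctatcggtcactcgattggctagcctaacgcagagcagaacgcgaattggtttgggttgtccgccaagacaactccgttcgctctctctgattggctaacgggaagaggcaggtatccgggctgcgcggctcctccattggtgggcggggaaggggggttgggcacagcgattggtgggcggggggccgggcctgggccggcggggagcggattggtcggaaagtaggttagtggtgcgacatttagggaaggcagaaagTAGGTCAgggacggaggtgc
Cry1 (chr10:85185005-85185304, minus strand): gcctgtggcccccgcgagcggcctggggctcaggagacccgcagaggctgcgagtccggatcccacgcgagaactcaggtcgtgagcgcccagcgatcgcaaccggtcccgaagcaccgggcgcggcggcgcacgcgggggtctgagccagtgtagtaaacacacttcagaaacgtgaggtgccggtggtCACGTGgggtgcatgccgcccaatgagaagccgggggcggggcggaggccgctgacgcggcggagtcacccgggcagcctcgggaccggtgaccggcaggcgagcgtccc

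E-boxes were found in 7.15% of all 32851 windows, D-boxes in 2.32% and the ROR core in 2.61%. These shares count windows, while a gene counts below if any of its windows matches, so they cannot be compared directly. For a gene with more than 1 window, the first that held a match is shown above. Of the 11 clock genes that were separate and higher, 10 had a window, and 3 of them held an E-box (Ciart, with 3 copies, Per1 and Tef) and 1 a D-box (Per3, with 2 copies). Of the 4 that were separate and lower, 3 had a window, of which Cry1 held an E-box and Arntl a ROR core. E-boxes thus stood in genes on both sides of the chow level. A match is a description and not evidence of binding. The windows of Dbp, Usp2 and Nr1d1 held none of the 3 motifs.

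Clock output genes held some of the largest differences of the comparison. In 23 genes 11 were separate and higher, 4 separate and lower and 4 at the chow level, 65.2% separate against 10% of all genes. Dbp, an output factor that binds D-boxes, was at 26.1, 28.7 and 30.4 CPM in KO livers on HFD, against 0.893, 0.540 and 1.14 CPM in control livers on chow, a 32.9-fold difference (log2 fold change 5.04 with SE 0.21, adjusted p = 5.15e-24). Ciart, a repressor of the loop, was at 14.5, 15.8 and 16.4 CPM in KO livers on HFD, against 0.726, 0.442 and 0.644 CPM in control livers on chow (log2 fold change 4.68 with SE 0.26, adjusted p = 1.56e-20). Per3 was at 15.4, 16.7 and 15.2 CPM in KO livers on HFD, against 2.79, 2.01 and 2.88 CPM in control livers on chow (log2 fold change 2.62 with SE 0.14, adjusted p = 1.6e-17). All 3 were under 3 CPM in every control library on chow and over 14 CPM in every KO library on HFD. Usp2, Tef, Nr1d1, Nr1d2, Per1 and Per2 were higher by 2.94, 1.61, 1.68, 1.05, 0.84 and 0.77. In the opposite arm, Arntl was at 12.1, 13.4 and 13.6 CPM in KO livers on HFD, against 30.5, 29.9 and 31.7 CPM in control livers on chow (log2 fold change -1.24 with SE 0.08, adjusted p = 8.03e-15), and Npas2 and Cry1 fell by 2.21 and 1.00. Clock and Nfil3 fell by 0.26 and 0.25, and Bhlhe40 and Rora were at the chow level.

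**Figure D3:**
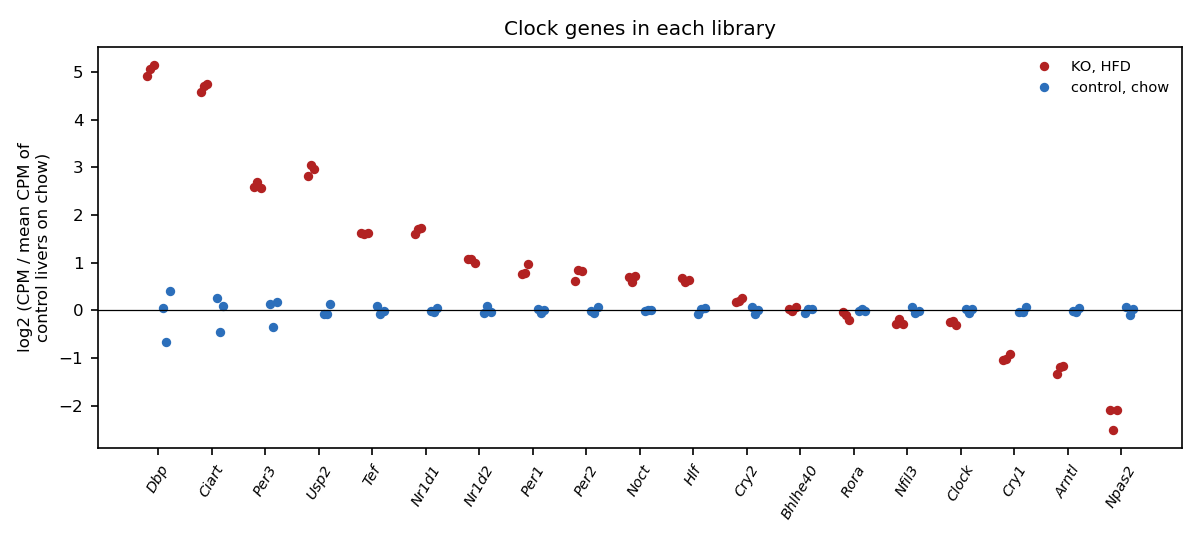
Level of 19 clock genes in each library, as log2 of CPM over the mean CPM of the 3 control libraries on chow; red points are KO livers on HFD and blue points control livers on chow. The fitted log2 fold changes were 5.04 for Dbp, 4.68 for Ciart and -2.21 for Npas2, and the 3 libraries of a group stayed close together.

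Beyond these lists, the genes with the largest fold were a mixed set. Rgs16, a regulator of G protein signalling, was at 189, 201 and 201 CPM in KO livers on HFD, against 5.19, 6.29 and 6.54 CPM in control livers on chow (log2 fold change 5.03 with SE 0.072, adjusted p = 2.08e-35). Zbtb16, a transcription factor, and Fkbp5, a chaperone of the glucocorticoid receptor, were higher by 3.39 and 2.69, both genes that glucocorticoids are known to induce. Slc22a29, Mycn and Lipg, which encodes endothelial lipase, were higher by 2.70, 2.68 and 2.46. Among the falls, Nr4a1, an immediate early nuclear receptor, was at 3.87, 3.33 and 3.66 CPM in KO livers on HFD, against 33.0, 30.7 and 33.7 CPM in control livers on chow (log2 fold change -3.16 with SE 0.11, adjusted p = 2.74e-23). Myc was at 2.06, 2.36 and 2.64 CPM in KO livers on HFD, against 14.5, 13.6 and 15.4 CPM in control livers on chow (log2 fold change -2.62 with SE 0.16, adjusted p = 3.28e-16). Cish, an inhibitor of cytokine signalling induced by STAT5, was at 0.804, 1.61 and 1.73 CPM in KO livers on HFD, against 12.1, 10.6 and 11.9 CPM in control livers on chow (log2 fold change -3.06 with SE 0.21, adjusted p = 1.36e-15). These 3 genes share a lower level in every KO library on HFD. Cib3, Slc34a2, a phosphate transporter, the chemokine gene Cxcl14, Ntrk2, a neurotrophin receptor, and Fst, which encodes follistatin, fell by 3.95, 3.89, 3.10, 2.81 and 2.69. Slc34a2 averaged under 1 CPM in KO livers on HFD, and its log2 fold change was -4.58 without replicate 2 of that group. Fam83f, Srgap3, Clic3 and Sult2a7 fell by 2.90, 2.60, 2.59 and 2.54.

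Markers of non-parenchymal cells stood apart from the lean state to different degrees. Of 30 macrophage and Kupffer cell genes 20 were higher and 1 lower past the threshold. Separate were 14 and 1 of them, together 50% against 10% of all genes. None was at the chow level and 9 met neither rule. The list's summed level was 558 to 562 CPM in KO livers on HFD and 383 to 399 CPM in control livers on chow. Marco, a scavenger receptor, was at 9.29, 10.7 and 11.3 CPM in KO livers on HFD, against 3.63, 4.03 and 3.92 CPM in control livers on chow (log2 fold change 1.43 with SE 0.13, adjusted p = 1.4e-11). Cd163, a haptoglobin receptor, was higher by 1.56, C1qa by 0.74, Cd5l by 0.59 and Clec4f, specific to Kupffer cells, by 0.57. Trem2 and Gpnmb, markers of lipid-associated macrophages, were higher by 1.80 and 2.04 but averaged under 1 CPM in both groups. Spp1, which bile duct cells express as well, fell by 0.76. Neutrophil genes lay on the other side: 7 of 15 were separate and lower, against 5.51% of all genes, and 6 met neither rule. The 1 member at the chow level (6.67% against 37.5% of all genes) was Cebpe, at 13.6 CPM in KO livers on HFD against 13.2 CPM in control livers on chow. S100a9, Prtn3 and Ngp fell by 1.71, 1.68 and 1.51, with S100a9 and Ngp under 5 CPM in both groups. Prtn3 averaged 3.39 CPM in KO livers on HFD against 10.9 CPM in control livers on chow. Lcn2, which hepatocytes also make, was the 1 member that was higher, at 72.2 CPM in KO livers on HFD against 38.4 CPM in control livers on chow, and the list's summed level was 97.3 to 101 CPM in KO livers on HFD and 82.9 to 84.1 CPM in control livers on chow. Ly6g, a defining neutrophil marker, had 1 count in the KO libraries on HFD and 2 in the control libraries on chow. The erythroid list, with 9 tested genes, summed to 156 to 173 CPM in KO livers on HFD and 202 to 210 CPM in control livers on chow. Its globin Hbb-bs was at 42.4, 38.5 and 36.4 CPM in KO livers on HFD, against 37.1, 40.1 and 38.8 CPM in control livers on chow (95% interval -0.10 to 0.14), with overlapping groups, while Alas2, Car1 and Car2 fell by 0.61, 0.86 and 0.78. Of 24 T, NK, B and plasma cell markers 11 were below the count filter, Cd3d, Cd3e and Cd8a among them, and the summed level was 317 to 340 CPM in KO livers on HFD and 400 to 407 CPM in control livers on chow. Most of that sum was Sdc1, which hepatocytes also express, with 288 CPM in KO livers on HFD against 367 CPM in control livers on chow. The immunoglobulin genes Ighg2b and Igkc were higher by 1.92 and 0.72 and Cd4 fell by 0.90, a call lost without replicate 1 of the KO livers on HFD (adjusted p = 0.0535) or replicate 2 of the control livers on chow (0.0612).

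Fibrosis and stellate cell genes were slightly above chow. Of 31 tested genes 16 were higher and 1 lower past the threshold, 4 of them separate (12.9% against 10%), with a median of 0.29. Col1a1, the main fibrillar collagen, was at 4.92, 6.82 and 7.16 CPM in KO livers on HFD, against 4.30, 4.47 and 3.77 CPM in control livers on chow (log2 fold change 0.59 with SE 0.14, adjusted p = 0.00118). Col1a2 and Tgfbi were higher by 0.63 and 0.66 and Rgs5, a pericyte gene, by 0.72, while Col3a1 differed by 0.31. Timp1, Tagln and Lox were below the count filter, and Acta2, the marker of activated stellate cells, met neither rule at 1.99 CPM in KO livers on HFD against 1.82 CPM in control livers on chow. In the endothelial list of 22 genes 17 were higher and 0 lower past the threshold, where 16.1% of all genes were higher. Separate were 3 of them (13.6%, near the 10% of all genes), Lyve1 by 1.06, Wnt2 by 1.00 and Plvap by 0.60. Without replicate 1 of the KO livers on HFD, 5 were separate, and 1 was separate among genes of at least 5 CPM. The list summed to 437 to 449 CPM in KO livers on HFD and 342 to 353 CPM in control livers on chow. The fibrosis list summed to 2378 to 2468 CPM in KO livers on HFD and 2372 to 2437 CPM in control livers on chow. Most of that sum was Fn1, which hepatocytes also make and which was at the chow level with 1926 CPM in KO livers on HFD against 2011 CPM in control livers on chow. The cholangiocyte list summed to 129 to 134 CPM in KO livers on HFD and 151 to 158 CPM in control livers on chow. In the cholangiocyte list of 11 tested genes 4 were lower past the threshold, against 16.1% of all genes, including Sox9 by 0.56 and Krt7 by 1.23. Aqp1, which endothelial cells express as well, was higher by 0.38 at 47.2 CPM in KO livers on HFD against 36.4 CPM in control livers on chow. Krt7 was under 2 CPM in both groups, and its call was lost without replicate 1 of the KO livers on HFD (adjusted p = 0.0626). Interferon and antigen presentation genes were separate for 3 of 31 members, a share of 9.68% that is near the 10% of all genes, with H2-Aa and Gbp3 higher by 0.59 and 0.70 and Ifi47 lower by 0.62. What part the abundance of these cells had in the other results was not tested.

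Cell cycle genes were split. Of 29 tested members 8 were separate and lower, among them the mitotic genes Cdc20, Ccnb1 and Top2a at -1.98, -1.74 and -1.35, and Mki67 was at 1.26, 1.24 and 1.02 CPM in KO livers on HFD, against 1.62, 2.80 and 2.48 CPM in control livers on chow (log2 fold change -0.99 with SE 0.24, adjusted p = 0.00122). The 4 that were separate and higher were Cdkn1a, Ccnd1, Rrm2 and Birc5. In all 41.4% of the list was separate, against 10% of all genes, and 14 members met neither rule. The 8 lower genes averaged under 5 CPM in both groups, and 4 members of the list were separate when only genes of at least 5 CPM were tested. Cdkn1a, which encodes the cell cycle inhibitor p21, was higher at 97.0, 97.0 and 96.6 CPM in KO livers on HFD, against 27.2, 25.6 and 26.5 CPM in control livers on chow (log2 fold change 1.87 with SE 0.044, adjusted p = 9.27e-27). Cyclin D1, Ccnd1, was at 9.85, 9.83 and 11.1 CPM in KO livers on HFD, against 5.92, 4.57 and 4.46 CPM in control livers on chow (log2 fold change 1.05 with SE 0.12, adjusted p = 6.17e-09). For neither gene did the groups overlap.

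Most ribosomal protein and respiratory chain genes were at the lean level. Of 35 cytosolic ribosomal protein genes 32 were at the chow level (91.4% against 37.5% of all genes) and none was separate. Rplp0, a stalk protein, was at 373, 361 and 370.1 CPM in KO livers on HFD, against 374, 363 and 368 CPM in control livers on chow, and Rpl3 at 175, 175 and 163 CPM in KO livers on HFD, against 169, 165 and 171 CPM in control livers on chow (95% interval -0.04 to 0.09). Groups overlapped in both. Of 35 nuclear subunits of oxidative phosphorylation 32 were at the chow level (91.4% against 37.5% of all genes) and none was separate. Atp5a1, of ATP synthase, was at 973, 976 and 998 CPM in KO livers on HFD, against 968, 962 and 978 CPM in control livers on chow. In limma-voom and without replicate 1 or 2 of the KO livers on HFD a single subunit was separate. Mitochondrially encoded genes took 6.49% to 6.76% of counts in KO livers on HFD and 7.17% to 7.28% in control livers on chow, shares that do not overlap, and their part in other results was not tested. Among 15 of them 8 were at the chow level (53.3% against 37.5% of all genes) and mt-Nd5 fell by 0.33. Hspa5, the main chaperone of the endoplasmic reticulum, was at 916, 915 and 894 CPM in KO livers on HFD, against 914, 912 and 906 CPM in control livers on chow. Of 25 stress response genes 15 were at the chow level (60% against 37.5% of all genes). The 5 separate members of that list, 20% against 10% of all genes, went both ways. Herpud1 and Chac1 were higher by 1.43 and 0.94, and Atf4, Asns and Atf3 were at -0.75, -1.74 and -0.65. Asns and Chac1 are both known targets of ATF4.

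Of 19 tested hepatocyte transcription factors 7 were at the chow level (36.8%, near the 37.5% of all genes), Cebpa, Foxa2, Prox1 and Nr1h4 among them, and 4 were separate (21.1% against 10%). Onecut1, a factor of hepatocyte and bile duct identity, was at 3.11, 3.92 and 5.74 CPM in KO livers on HFD, against 17.5, 18 and 15.7 CPM in control livers on chow (log2 fold change -2.00 with SE 0.16, adjusted p = 1.72e-12). Gata4 fell by 0.73, while Foxa3 was higher by 0.60. Cebpb, a factor of the acute phase, was at 30.1, 25.8 and 23.7 CPM in KO livers on HFD, against 8.77, 24.2 and 12.9 CPM in control livers on chow, with overlapping groups (log2 fold change 0.78 with SE 0.17, adjusted p = 0.000311). Without replicate 2 of the control livers on chow, the highest of them, its log2 fold change was 1.28, and without replicate 1, the lowest, 0.52. Hnf4a, the central factor of the hepatocyte program, was 1.29-fold higher, past the threshold but not separate. Among the 10 most abundant genes at the chow level were Alb, Apoe, mt-Co1 and mt-Cytb, as well as Ttr, which carries thyroxine, at 6890.5, 6838 and 6575 CPM in KO livers on HFD, against 6683, 6569 and 6707 CPM in control livers on chow, and Gc, the vitamin D binding protein, at 6221, 6073 and 5821 CPM in KO livers on HFD, against 6190.2, 6018 and 6109.9 CPM in control livers on chow. For Ttr and Gc the groups overlapped.

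**Figure D4:**
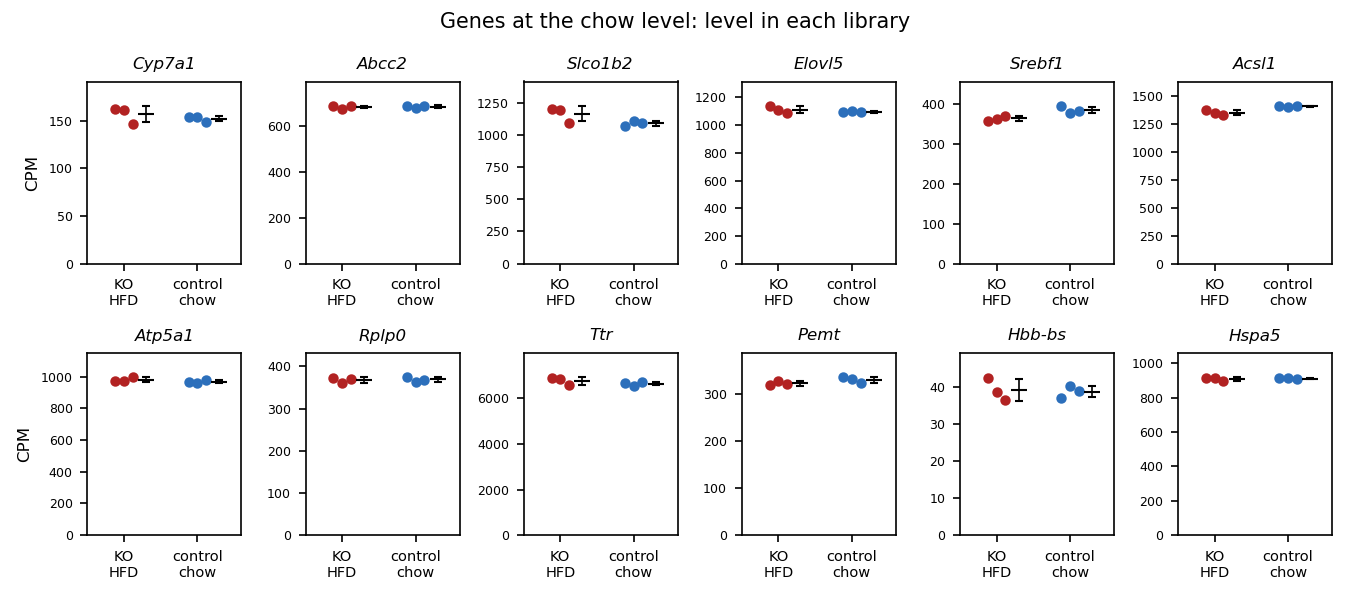
CPM in each library (points), with mean and SD (bars, n = 3), of 12 genes whose 95% interval of the log2 fold change lay between -0.32 and 0.32, KO livers on HFD on the left and control livers on chow on the right of each panel. Cyp7a1, Rplp0, Ttr and Hbb-bs had overlapping groups, and every axis starts at 0.

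Where the other 6 libraries stood is given for orientation as mean levels, with no test between KO livers on HFD and these groups. Cd36 averaged 102 CPM in KO livers on HFD, 49.6 CPM in chow-fed KO livers, 226 CPM in control livers on HFD and 54.2 CPM in control livers on chow. Cidec averaged 19.5 CPM in KO livers on HFD, 7.25 CPM in KO livers on chow, 61.1 CPM in control livers on HFD and 6.07 CPM in control livers on chow. For both genes the KO level on HFD thus lay between those of the 2 control groups. Cyp4a14 averaged 1243 CPM in KO livers and 1221 CPM in control livers on HFD, against 99.6 CPM in control livers on chow. G6pc averaged 403 CPM in KO livers on HFD, 392 CPM in control livers on HFD and 996 CPM in control livers on chow. Cyp7a1 and Rpl3 were at the chow level in KO livers on HFD, with 157 and 171 CPM, against 83.7 CPM and 105 CPM in control livers on HFD and 152 and 168 CPM in control livers on chow. Hsd3b5 averaged 28.7 CPM in KO livers on HFD, 91.5 CPM in KO livers on chow, 1.47 CPM in control livers on HFD and 130.3 CPM in control livers on chow.

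By list, the median log2 fold change against control livers on chow was 0.04 in KO livers on HFD, 0.10 in chow-fed KO livers and -0.37 in fat-fed control livers for ribosomal protein genes. For acute phase genes it was -0.04 in KO livers on HFD, 1.08 in chow-fed KO livers and -0.68 in fat-fed control livers. Cell cycle genes had -0.21 in KO livers on HFD, 0.09 in chow-fed KO livers and 0.76 in fat-fed control livers. A median near 0 does not place a list at the chow level: the acute phase list had 46.4% and the cell cycle list 41.4% of its members separate in KO livers on HFD, and the ribosomal list none. Fatty acid oxidation genes stood at 0.48 in KO livers on HFD, -0.20 in chow-fed KO livers and 0.60 in fat-fed control livers, with both fat-fed groups above chow. Macrophage genes had 0.58 in KO livers on HFD, 1.29 in chow-fed KO livers and 0.15 in fat-fed control livers. Separate genes, called by the same edgeR test and fold limit in each group's own contrast, were 1480 (10%) in KO livers on HFD, 1448 (9.80%) in chow-fed KO livers and 1793 (12.1%) in control livers on HFD, and all 3 counts use the same control libraries.

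**Figure D5:**
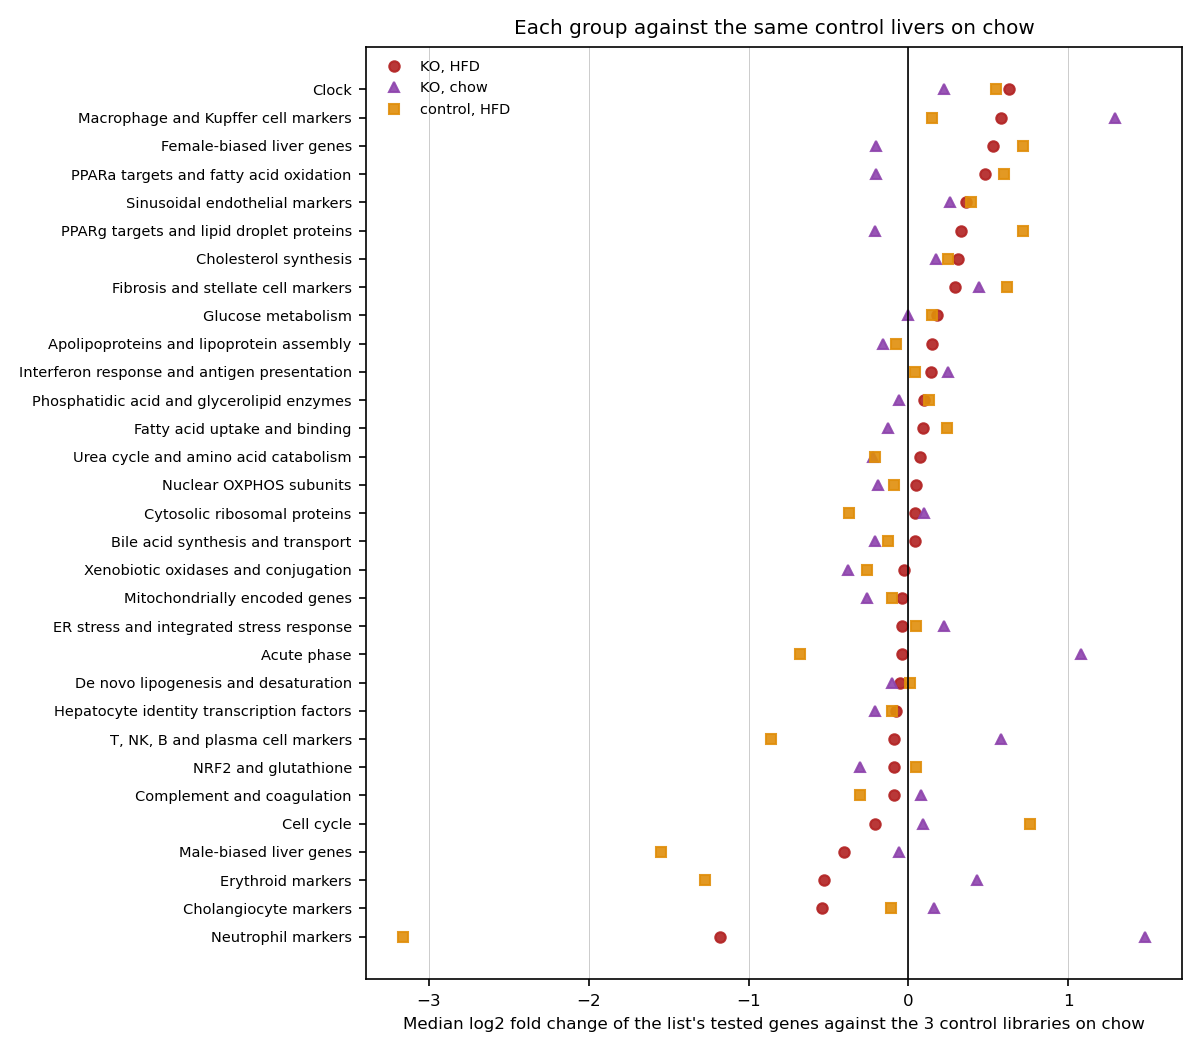
Median log2 fold change of each list's tested genes against the 3 control libraries on chow, for KO livers on HFD (circles), KO livers on chow (triangles) and control livers on HFD (squares). The 3 sets of medians share their control libraries and were not compared by a test; neutrophil markers had -1.18 in KO livers on HFD, 1.48 in chow-fed KO livers and -3.16 in control livers on HFD.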

How the data were processed

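RNA from mouse liver was sequenced in 12 libraries, 4 groups of 3, prepared for Illumina sequencing from TRIzol extracts, per the labels' protocols. The authors deposited unnormalised counts by Ensembl gene ID, recognised as such because all values are whole and column totals differ. Per the submitters' processing notes, the tool was Bowtie 0.12.2 and the build mm8. No source used here names the counting program, its annotation or its handling of strand and of reads shared by several genes. Reads of paralogs, overlapping genes and antisense partners therefore cannot be told apart with certainty. No file coordinates were used, and GENCODE M21 gave a symbol to 53274 of 53465 gene IDs, the others holding at most 0.0379% of a library.

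Counts were fitted with edgeR 4.0.16 in R 4.3.3 after filterByExpr by group (14778 genes tested) and TMM scaling. All 12 libraries entered 1 model of 4 groups, and the contrast was KO on HFD minus control on chow. Its quasi-likelihood test gave p-values adjusted by Benjamini-Hochberg over all tested genes, with a threshold of 0.05. SEs and 95% intervals of log2 fold changes came from the same fit, whose common biological coefficient of variation was 3.95%. Libraries of a group differed by more than sampling noise in every pair and were each counted once. The script was tested on simulated data.

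Genes with full values were chosen by rule. They are listed key genes, the 15 genes with the largest fold in each direction (at least 5 CPM in the higher group, no overlap of libraries, no bare gene models), up to 4 separate and 3 chow-level members of each list, and the 10 most abundant genes at the chow level. Other list members are named as examples chosen after their values were seen. The comparison, the lists and the key genes were chosen with earlier results of these data known. Alternatives were DESeq2 1.42.0 (its test and its size factors), limma-voom (limma 3.58.1), upper quartile scaling, other count filters, removal of length and GC trends, the 6 libraries alone, a replicate block, other fold limits, and each library left out. Counts of 0 were given a floor of 3 counts. Such limits and the intervals cover counting error and the spread between libraries only. 1 listed erythroid name matched no ID. It and some other listed genes are not reported here by name, although the tested ones are included in the counts of their lists.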

Additional observations from a re-analysis of the deposited data

How the results depend on the processing

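Counts of genes past the threshold, of separate genes and of genes at the chow level stayed within 1.5 times of 4761, 1480 and 5546 under DESeq2's test, its size factors, limma-voom, upper quartile scaling, no count filter, removal of length and GC trends, and the 6 libraries alone. Leaving out each library gave 4111 to 4312 genes past the threshold, 1366 to 1409 separate genes and 5034 to 5125 at the chow level. With only genes of at least 5 CPM tested, 790 were separate, and a 2-fold limit left 717. Bounds of 1.1-fold and 1.5-fold placed 892 and 9048 genes at the chow level. A variation fixed at 20%, chosen after seeing the data, gave 923 genes past the threshold, 923 separate and 0 at the chow level. Removing length and GC trends turned the small differences of Apob, mt-Cytb, mt-Nd2 and mt-Nd4 to 0.09, 0.02, 0.06 and 0.10, and the cause was not tested. Of 83 named genes at the chow level, 70 stayed within the bounds in all 15 planned fits. The labels' replicate numbers do not pair the libraries: same-numbered deviations correlated at -0.0638, 0.0199 and 0.0561, and a replicate block gave 4712 calls, 1457 separate genes and 5546 at the chow level. Genes under 5 CPM and list counts below about 5 genes are the least certain, and the chow level is a statement about these libraries' spread.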
